A study of Homo sapiens with 12 samples.

Results

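Transcripts of 47 lysosomal genes were measured by RNA-seq in A375 cells, an established human melanoma line that carries an activated BRAF kinase. The 47 genes were the rows, out of 44659 in the table of read counts, whose symbol belonged to a list of lysosomal genes. It covered transcription factors, membrane proteins, degrading enzymes and subunits of the proton pump. The list was chosen by known function, with earlier results of these data known. The list held 2 transcription factors, 7 membrane proteins, 10 proteases, 8 glycosidases, 3 sulfatases, 8 lipid-degrading enzymes with their helpers, and 9 subunits of the proton pump. In 1 experiment, 3 MAPKi libraries came from cells given 500 nM vemurafenib, a BRAF inhibitor, together with 500 nM cobimetinib, a MEK inhibitor, for 24 h, and 3 DMSO libraries came from cells given the solvent. In the other, 3 Gln-depleted libraries came from cells kept for 24 h without glutamine, and 3 CTRL libraries from cells in the same medium with 2 mM glutamine. All cells grew in DMEM with serum, and the MAPKi and DMSO media also held 2 mM glutamine. The labels place replicate 1 of the Gln-depleted and CTRL groups in experimental batch 1 and replicates 2 and 3 in batch 2, and the experiments in different sequencing batches. Nothing in the labels says that the 3 MAPKi or DMSO libraries came from separate cultures, so p-values there measure the spread between libraries, which may be technical. One cell line was used, and in a bulk sample fewer cells of a kind and less RNA per cell cannot be told apart.

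Lysosomes are acidic compartments in which hydrolases break down proteins, glycans, nucleic acids and lipids. The V-ATPase, a rotary pump with a cytosolic V1 part that splits ATP and a V0 part in the membrane, drives protons inwards, and its surface is where mTORC1 senses amino acids. TFEB, TFE3 and the melanocyte factor MITF belong to 1 family of basic helix-loop-helix leucine zipper proteins. They bind E-boxes with the core CACGTG in promoters of lysosomal genes. TFEB and TFE3 are held in the cytoplasm or released to the nucleus in response to nutrients. In pigment cells the machinery also serves melanosomes, which are organelles related to lysosomes.

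Between 31056296 and 40071368 reads were counted per library. The genes that report on each treatment followed the labels: DUSP6, a phosphatase induced by the MAPK pathway, had normalized counts of 2.01, 8.93 and 7.08 in the MAPKi libraries and 4613, 4583 and 4317 in the DMSO libraries, and the summed level of 6 genes of the amino acid response was 1721 to 2006 CPM (counts scaled to the total of a library) in Gln-depleted and 299 to 390.4 CPM in CTRL libraries. The summed level of 8 MAPK pathway targets, DUSP6 among them, was 660 to 778 CPM in MAPKi and 3057 to 3133 CPM in DMSO libraries. In Gln-depleted libraries it was 4999 to 6464 CPM, above the 3265 to 3521 CPM of CTRL libraries. The summed level of 6 melanocyte lineage genes was 8786 to 10740 CPM in MAPKi, 1174 to 1252 CPM in DMSO, 495 to 588 CPM in Gln-depleted and 857 to 1106 CPM in CTRL libraries. Most of the MAPKi sum was DCT, at 7046 to 8981 CPM against 164 to 243 CPM in DMSO libraries. SOX10 was at 808 to 889 CPM in MAPKi and 576 to 604 CPM in DMSO libraries. The summed level of 4 other genes known from melanoma cells (S100B, S100A1, VIM and AXL) was 2385 to 2501 CPM in MAPKi and 5282 to 5717 CPM in DMSO libraries, and 3926 to 5037 CPM in Gln-depleted and 4228 to 6893 CPM in CTRL libraries, which overlapped. Most of this sum was VIM, at 2134 to 2230 CPM in MAPKi and 4927 to 5330 CPM in DMSO libraries. The 8 markers of other cell types summed to at most 8.96 CPM in any library, with CD3E and KRT5 at 0 in all 12. RN7SK, an abundant non-coding RNA, took 3.95% to 4.40% of the counts in MAPKi and 1.93% to 2.15% in DMSO libraries, and 1.99%, 2.46% and 3.79% in Gln-depleted replicates 1 to 3 and 1.55%, 1.78% and 2.25% in CTRL replicates 1 to 3, higher in each same-numbered pair. These values moved with the groups compared below, and their part in the results was not tested.

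Together the 47 genes took 1.51% ± 0.0972 (SD, n = 3) of the counts in MAPKi libraries, 0.722% ± 0.0359 in DMSO, 0.713% ± 0.105 in Gln-depleted and 0.737% ± 0.101 in CTRL libraries. The MAPKi range of 1.44% to 1.62% lay above the DMSO range of 0.691% to 0.761%, whereas the Gln-depleted and CTRL ranges overlapped. On a scale of reads per kilobase of the MANE Select transcript and library size (RPKM), the highest level in DMSO libraries was that of CD63, a tetraspanin of late endosomes, at 736 ± 30.9 RPKM (SD, n = 3), followed by PSAP, the precursor of the saposins that present sphingolipids to their hydrolases, at 474 ± 26.9 RPKM. LAMP1 came next at 147 ± 6.04 RPKM, and PPT1, CTSA and GRN at 125 ± 7.06, 121 ± 10.8 and 117 ± 8.60 RPKM did not differ beyond their spread. With MAPKi the order of levels became PSAP at 1599 ± 123 RPKM, CD63 at 866 ± 62.6, CTSA at 507 ± 42.1, CTSD at 443 ± 42.0 and GRN at 415 ± 46.0 RPKM, where the range of CTSD overlapped those of CTSA and GRN, which did not overlap each other. CTSK and SMPD1 moved from places 31 and 32 to 13 and 15, and LGMN from place 9 to 32. In CTRL and Gln-depleted libraries the highest levels were again those of CD63, at 762 ± 94.5 and 635 ± 146 RPKM, and PSAP, at 485 ± 119 and 683 ± 199.6 RPKM. The lowest levels of genes with reads in every library were those of TFEB, GALC and CTSS, between 0.497 ± 0.118 and 2.47 ± 0.189 RPKM in DMSO libraries.

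Lysosomal genes were broadly higher with MAPKi. Of the 47 genes, 45 passed the filter on low counts in each experiment. With MAPKi, 41 of them were higher and 4 were lower than with DMSO (edgeR's quasi-likelihood test, Benjamini-Hochberg adjusted p at most 0.05 over 12595 genes), where 39.3% of all genes tested were higher and 38.8% lower (78.1% in either direction). Against a 1.5-fold change 25 rose and 1 fell, beside 17.2% and 18.4% of all genes. The median log2 fold change of the 45 was 0.85, and that of all genes tested was 0.0092. In 41 of the 45 all MAPKi libraries lay above all DMSO libraries and in 2 all lay below, whereas 40.8% and 40.2% of all genes did so. The log2 fold change was above the 90th percentile of all genes for 14 of them and above the 95th for 7. TFE3, the relative of TFEB, was listed with 0 or 1 read per library, and GAA, the lysosomal acid alpha-glucosidase that digests glycogen, with 0 reads in all 12 libraries, although the reference annotation shows no other gene over their exons, so neither was tested and their levels are not read here.

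**Figure D1:**
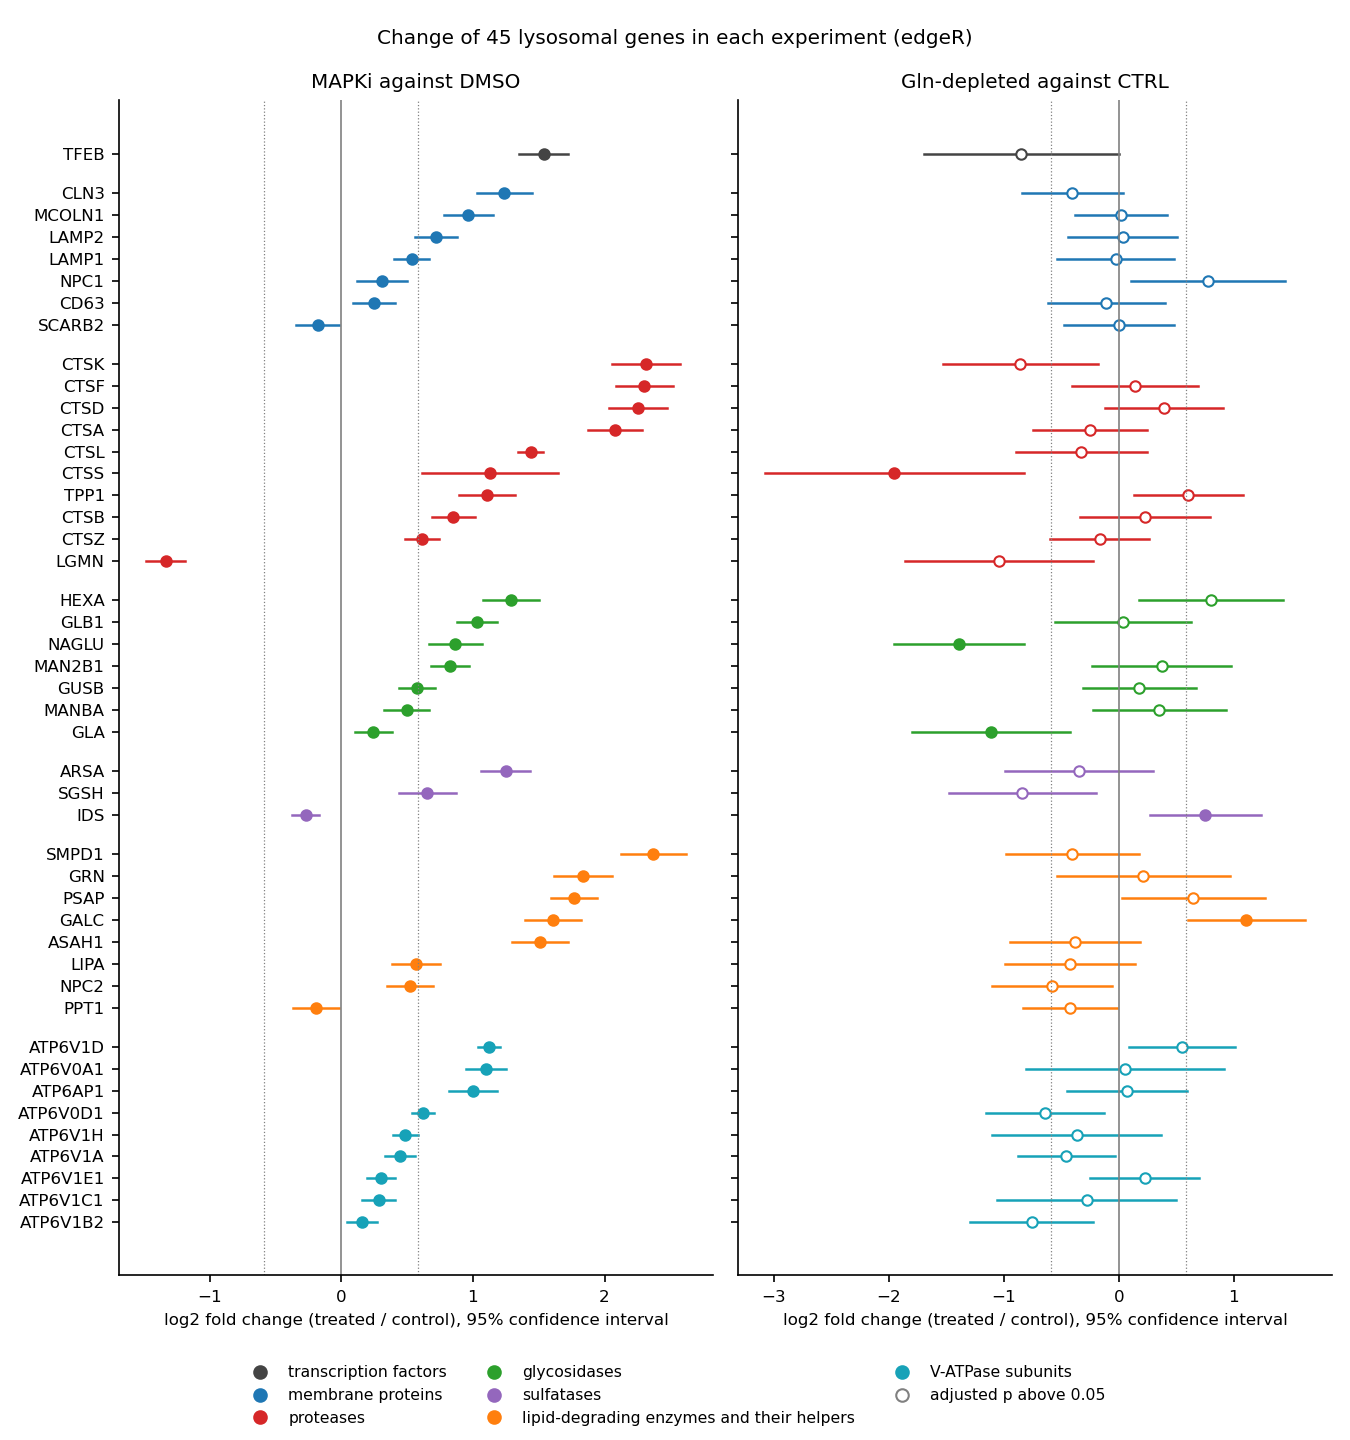
Log2 fold changes with 95% confidence intervals (edgeR) of the 45 genes tested, grouped by role, with MAPKi against DMSO on the left and Gln-depleted against CTRL on the right, where filled points passed an adjusted p of 0.05 and dotted lines mark 1.5-fold. On the left 41 points lie above 0 and LGMN stands apart below it. On the right 5 points are filled and the intervals are wider.

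Promoters are shown because the factors named above bind CACGTG and the genes moved together with MAPKi. Windows of 300 bases, from 250 before to 50 after a RefSeq start (build GRCh38.p14), were found for 31 of the 47 genes. CACGTG, which reads the same on both strands, stood in the windows of 9 of the 31 genes (29.0%) and of 8.78% of 27305 genes with a window (7.26% of 35116 windows). The longer words TCACGTGA, GTCACGTG and the 10-base palindrome of the CLEAR element, which adds AC to the latter, all contain it, were searched on both strands, and stood in 6 (19.4%), 7 (22.6%) and 2 (6.45%) of the 31 genes, against 1.18%, 2.93% and 0.421% of all genes. The 9 genes were LAMP1, CD63, MCOLN1, CLN3, CTSA, CTSD, CTSF, GAA and ATP6V0D1. In LAMP1 the window held 6 matches. The sites nearest to the start in genes from 3 roles are given with the gene's strand read 5′ to 3′ and CACGTG in capitals.
MCOLN1 (chr19:7522598-7522627, plus strand): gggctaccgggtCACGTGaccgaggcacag
CLN3 (chr16:28492058-28492087, minus strand): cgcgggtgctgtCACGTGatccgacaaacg
LAMP1 (chr13:113297226-113297255, plus strand): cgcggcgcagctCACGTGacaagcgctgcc
CTSA (chr20:45891298-45891327, plus strand): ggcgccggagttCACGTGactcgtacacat
CTSD (chr11:1763957-1763986, minus strand): gccggccgcgccCACGTGaccggtccgggt
CTSF (chr11:66568640-66568669, minus strand): ccctgcgcgcccCACGTGcctcctgtaaac
ATP6V0D1 (chr16:67481199-67481228, minus strand): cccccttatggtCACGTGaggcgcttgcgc
Among these sites MCOLN1 carries the 10-base palindrome and CTSF only the 6-base core. The site of CD63, at position -180 from the start and with only the 6-base core, and those of GAA are not printed. The median log2 fold change with MAPKi was 1.10 over the 8 tested genes of the list with CACGTG and 0.82 over the 21 without it. Over all genes tested it was -0.0016 over 1306 with CACGTG and 0.0032 over 8891 without. The E-boxes are known from promoters of lysosomal genes, and the list was chosen by known function. Their higher share in the list is therefore no independent result. A match is a description of the letters in the window.

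TFEB (chr6:41683978-41736259 on GRCh38), the main transcription factor of lysosomal biogenesis, had normalized counts of 595, 587 and 567 in the MAPKi libraries and 189, 193 and 219.8 in the DMSO libraries. The lowest MAPKi library lay far above the highest DMSO library. The log2 fold change was 1.54 ± 0.082 (SE), a 2.91-fold rise (adjusted p = 1.96e-07).

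Of the 7 membrane proteins, 6 were higher and 1 was lower with MAPKi, 3 of them beyond 1.5-fold, with a median log2 fold change of 0.53. CLN3, a membrane protein lost in juvenile neuronal ceroid lipofuscinosis, rose most, with normalized counts of 2526, 2161 and 2109.5 in the MAPKi libraries and 1082, 886 and 914 in the DMSO libraries. The groups did not overlap, and the log2 fold change was 1.24 ± 0.091 (adjusted p = 1.72e-06). Another gene overlaps 25.3% of the exon bases of CLN3 on the same strand. MCOLN1, the channel that releases calcium from lysosomes, changed by 0.97 on the log2 scale, and LAMP2 and LAMP1, the main glycoproteins that line the membrane, by 0.72 and 0.53. NPC1, which exports cholesterol, and CD63 rose on the log2 scale by 0.31 and 0.25. SCARB2, which carries glucocerebrosidase to the lysosome, had normalized counts of 13215, 11681 and 11813 in the MAPKi libraries and 14962, 12673 and 13961 in the DMSO libraries. Its groups overlapped, and its log2 fold change of -0.18 ± 0.071 passed the test narrowly (adjusted p = 0.0435). With the replicate number fitted as a block in edgeR it passed more clearly (adjusted p = 0.0015), lower in 3 of 3 same-numbered pairs.

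Of the 10 proteases 9 were higher with MAPKi, 8 of them beyond 1.5-fold, and the median log2 fold change was 1.29. CTSK, a collagen-degrading cysteine cathepsin, had normalized counts of 7374, 5439.9 and 5778 in the MAPKi libraries and 1296, 1151 and 1283 in the DMSO libraries. All MAPKi libraries lay above all DMSO libraries, with a 4.98-fold rise (log2 fold change 2.32 ± 0.11, adjusted p = 1.14e-07). CTSF, another cysteine cathepsin, CTSD, the main aspartic protease, and CTSA, a serine carboxypeptidase that also stabilises beta-galactosidase and neuraminidase, rose on the log2 scale by 2.30, 2.26 and 2.08. These 4 proteases lay at or above percentile 96.9 of all genes tested. CTSL, an endopeptidase, rose on the log2 scale by 1.44, TPP1, which removes tripeptides from N-termini, by 1.10, CTSB by 0.85 and CTSZ, a carboxypeptidase, by 0.61. CTSS, which processes the invariant chain of MHC class II, was the least abundant, with normalized counts of 181, 154 and 115 in the MAPKi libraries and 68.6, 51.4 and 84.9 in the DMSO libraries, and rose on the log2 scale by 1.13 ± 0.23. LGMN, the asparaginyl endopeptidase that matures several cathepsins, went the other way. It had normalized counts of 2616, 2330.0 and 2341 in the MAPKi libraries and 6512, 5684 and 6164 in the DMSO libraries. The groups stood apart, and the log2 fold change of -1.33 ± 0.066 (adjusted p = 1.19e-07) made LGMN the 1 member that fell beyond 1.5-fold. Other genes overlap 27.3% of the exon bases of CTSD and 11.6% of those of TPP1 on the same strand. On the other strand they overlap 31.7% of those of CTSZ and 21.5% of those of CTSA. The strand setting of the counting is not given in the sources used here. Reads could be split between CTSL and its close relative CTSV. A further row for CTSB (2210 to 5146 reads) was kept apart.

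All 7 glycosidases tested were higher with MAPKi, 4 of them beyond 1.5-fold. HEXA, a subunit of beta-hexosaminidase, which cuts GM2 ganglioside, led with normalized counts of 7634, 5977 and 6323 in the MAPKi libraries and 2868, 2507 and 2779.9 in the DMSO libraries. The groups did not overlap, and the log2 fold change was 1.29 ± 0.093 (adjusted p = 1.45e-06). GLB1, beta-galactosidase, rose on the log2 scale by 1.03, NAGLU, which removes N-acetylglucosamine from heparan sulfate, by 0.87, and MAN2B1, alpha-mannosidase, by 0.82. Other genes on the same strand overlap 21.2% of the exon bases of MAN2B1 and 12.9% of those of NAGLU. GUSB, beta-glucuronidase, MANBA, beta-mannosidase, and GLA, alpha-galactosidase A, rose on the log2 scale by 0.58, 0.50 and 0.24, short of 1.5-fold. Of the 3 sulfatases, ARSA, which degrades sulfatide, rose with normalized counts of 2362, 1974 and 1912 in the MAPKi libraries and 902, 834 and 892 in the DMSO libraries, a log2 fold change of 1.25 ± 0.082 (adjusted p = 7.77e-07). SGSH, which takes the sulfate from the glucosamine of heparan sulfate, rose on the log2 scale by 0.65. IDS, iduronate 2-sulfatase, had normalized counts of 2591, 2507 and 2541 in the MAPKi libraries and 3243, 3003 and 2967 in the DMSO libraries. Every MAPKi library of IDS lay below every DMSO library, by a small margin (log2 fold change -0.27 ± 0.045, adjusted p = 4.51e-04). Other genes on the same strand overlap 75.9% of its exon bases, and how such reads were assigned was not tested.

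Of the 8 lipid-degrading enzymes and helpers, 7 were higher, 5 of them beyond 1.5-fold, with the highest median of any role, 1.56. SMPD1, the acid sphingomyelinase, rose most of all 45 genes, with normalized counts of 10123, 8416 and 8327 in the MAPKi libraries and 1949, 1492 and 1754 in the DMSO libraries. The fold was 5.17, with no overlap of the groups (log2 fold change 2.37 ± 0.11, adjusted p = 7.62e-08). GRN, progranulin, which is cut to granulins in the lysosome, and PSAP rose on the log2 scale by 1.84 and 1.77, GALC, which removes galactose from galactosylceramide, by 1.61, and ASAH1, acid ceramidase, by 1.51. PSAP alone took 0.416% to 0.478% of all counts in MAPKi and 0.124% to 0.138% in DMSO libraries. LIPA, which hydrolyses cholesteryl esters, and NPC2, which hands cholesterol to NPC1, rose on the log2 scale by 0.57 and 0.52, short of 1.5-fold. PPT1, which removes fatty acids from proteins, had normalized counts of 9808, 8371 and 8042 in the MAPKi libraries and 10606, 9531 and 9781 in the DMSO libraries. These groups overlapped (log2 fold change -0.19 ± 0.077, adjusted p = 0.0476). With the block PPT1 passed in edgeR (adjusted p = 0.0017), lower in 3 of 3 pairs, and with a GC-content correction as well it did not (adjusted p = 0.0558). Without the block, PPT1 and SCARB2 no longer passed without MAPKi replicate 2 or 3 or DMSO replicate 1 or 3. PPT1 was also lost without DMSO replicate 2 (log2 fold changes -0.13 to -0.23). This left LGMN and IDS as lower genes, and SCARB2 with them without DMSO replicate 2.

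All 9 subunits of the proton pump were higher with MAPKi, 3 of them beyond 1.5-fold, with a median of 0.49. ATP6V1D, part of the central rotor, had normalized counts of 5205, 5190.0 and 5296 in the MAPKi libraries and 2383, 2439 and 2395 in the DMSO libraries. The replicates were tight and the groups far apart, with a 2.17-fold rise (log2 fold change 1.12 ± 0.037, adjusted p = 1.13e-08). ATP6V0A1, the membrane subunit that forms the path of the protons, and ATP6AP1, an accessory subunit needed for assembly, rose on the log2 scale by 1.10 and 1.00. ATP6V0D1, which joins the rotor to the membrane ring, rose on the log2 scale by 0.62, and the regulatory subunit ATP6V1H and the catalytic subunit ATP6V1A by 0.49 and 0.45. The stalk subunits ATP6V1E1 and ATP6V1C1 and the nucleotide-binding subunit ATP6V1B2 changed least, on the log2 scale by 0.30, 0.28 and 0.16. In the fit without a block, ATP6V1B2 lost its call without MAPKi replicate 2 (0.15) or 3 (0.11) or DMSO replicate 1 (0.13) or 2 (0.14). With the block and all libraries of the experiment it passed in edgeR (adjusted p = 0.0021). When 1 spread was estimated over all 12 libraries, the changes of ATP6V1B2, ATP6V1C1, ATP6V1E1, ATP6V1H, CD63, GLA, MANBA and NPC1 did not pass, which left 33 higher genes, and of the lower genes 1, LGMN, passed, beside 24.2% and 25.5% of all genes.

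**Figure D2:**
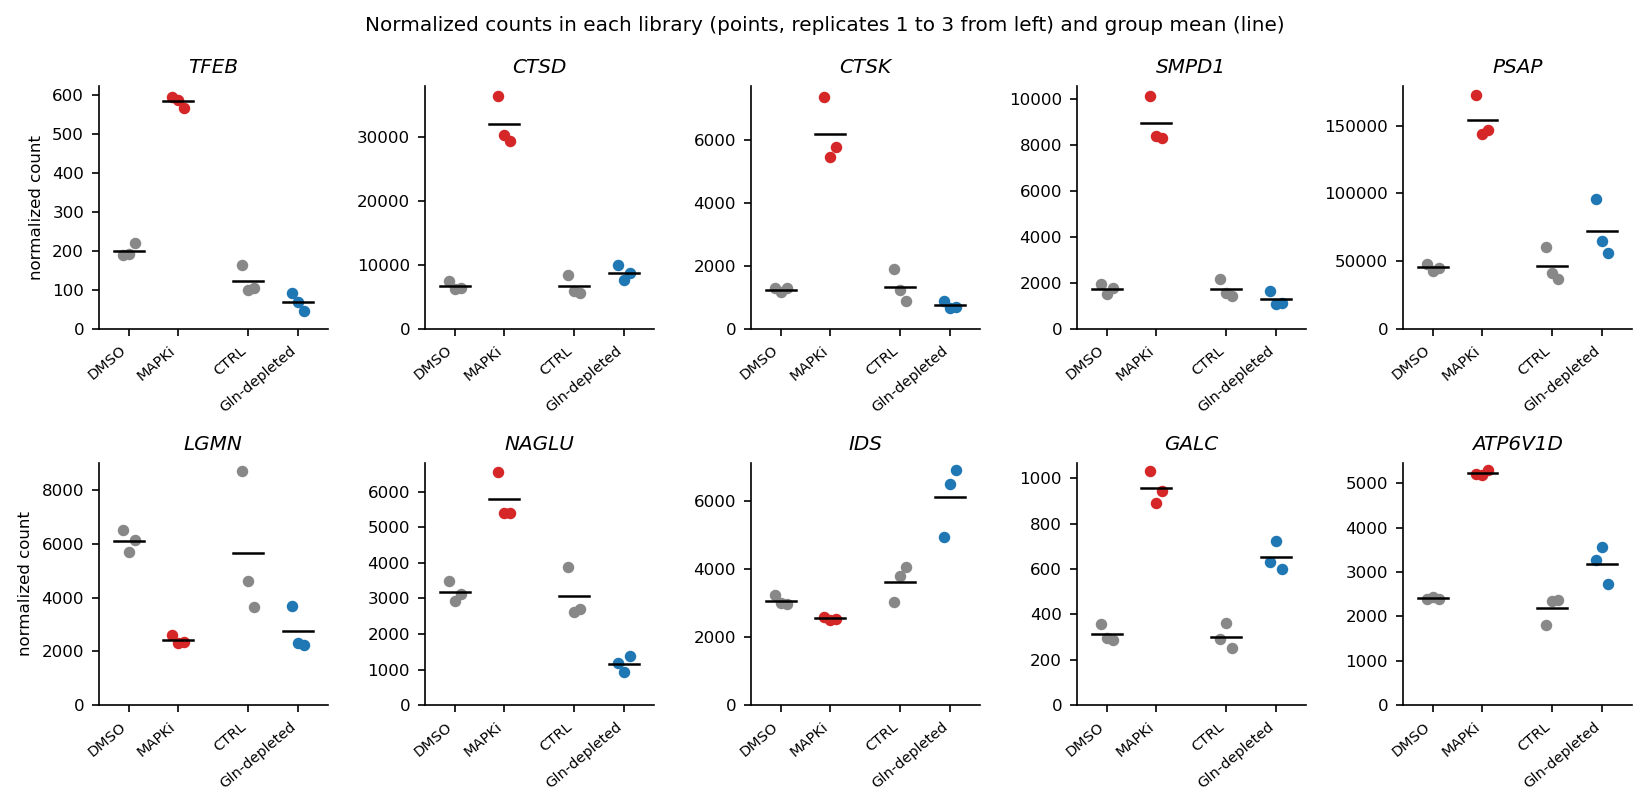
Normalized counts (linear axis from 0) of 10 lysosomal genes in the 12 libraries, replicates 1 to 3 from left to right in each group, with lines at group means. Each experiment was normalized on its own. MAPKi points lie above DMSO for 8 of the genes and below for LGMN and IDS, and Gln-depleted points of TFEB, CTSK and NAGLU lie below CTRL while those of IDS, GALC and ATP6V1D lie above.

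With glutamine depletion genes of the list passed in both directions, and their number depended on whether same-numbered libraries were paired. In the fit without pairing, 2 of the 45 were higher and 3 were lower than with CTRL medium, beside 9.43% and 8.29% of the 12514 genes tested (17.7% in either direction). Against a 1.5-fold change 0 rose and 1, NAGLU, fell, beside 3.47% and 2.09% of all genes (1 and 3 at an unadjusted p of at most 0.05, and 0 and 0 with DESeq2). The median log2 fold change was -0.11, that of all genes 0.0014. In this fit the shares of the members lay near or below those of all genes tested. All Gln-depleted libraries lay above all CTRL libraries for 5 of the genes and below for 12, and 20.1% and 19.7% of all genes did so. Libraries with the same number deviated together, so the replicate number was also fitted as a block. With the block, 9 were higher and 16 lower, where 25.1% and 23.8% of all genes were. The share of the members then lay below that of all genes for higher genes and above it for lower genes, which was not tested. Beyond 1.5-fold 1, GALC, then rose and 4, CTSS, LGMN, GLA and NAGLU, fell, beside 8.84% and 7.82% of all genes. Within experimental batch 2 alone (2 against 2 libraries) 8 were higher and 10 lower, beside 17.9% and 17% of all genes, and batch 1 held 1 library per group and gave no test. With the block, the 9 higher genes were NPC1, CTSD, TPP1, HEXA, MAN2B1, IDS, GALC, PSAP and ATP6V1D. The 16 lower ones were TFEB, CLN3, CTSK, CTSS, LGMN, GLA, NAGLU, SGSH, LIPA, NPC2, PPT1, SMPD1, ATP6V0D1, ATP6V1A, ATP6V1B2 and ATP6V1H. The median standard error of a log2 fold change was 0.25 here and 0.075 with MAPKi.

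NAGLU, on the path of heparan sulfate degradation, had normalized counts of 1194, 925 and 1394 in the Gln-depleted libraries and 3896, 2605 and 2689.8 in the CTRL libraries. All Gln-depleted libraries lay below all CTRL libraries, and the log2 fold change was -1.39 ± 0.25 (adjusted p = 0.00925, and between 6.85e-06 and 0.0434 over the alternatives). SGSH, which acts on the same chain, had normalized counts of 865, 517 and 682 in the Gln-depleted libraries and 1637, 1095 and 964 in the CTRL libraries, which did not overlap, and a log2 fold change of -0.84 ± 0.28 (adjusted p = 0.0706). With the block it was -0.83 and passed. GLA had normalized counts of 1014, 508 and 530.4 in the Gln-depleted libraries and 1694, 1447 and 1287 in the CTRL libraries and a log2 fold change of -1.11 ± 0.30 (adjusted p = 0.0376). CTSS, at very low counts, had normalized counts of 25.7, 8.74 and 9.69 in the Gln-depleted libraries and 55.5, 68.8 and 46.7 in the CTRL libraries and a log2 fold change of -1.95 ± 0.49 (adjusted p = 0.0305). The groups of both genes stood apart. Without the block, both calls were lost when Gln-depleted replicate 2 or 3 or CTRL replicate 2 or 3 was left out, GLA also without CTRL replicate 1, with log2 fold changes of -0.93 to -1.20 for GLA and -1.67 to -2.08 for CTSS (adjusted p over all alternatives 0.00107 to 0.135 and 0.00227 to 0.11).

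GALC rose, with normalized counts of 630.0, 723 and 601 in the Gln-depleted libraries and 291, 361 and 253 in the CTRL libraries. Its groups did not overlap, and the log2 fold change was 1.11 ± 0.22 (adjusted p = 0.0138). It was lost without Gln-depleted replicate 2 (1.03) or CTRL replicate 3 (0.995), with adjusted p over all alternatives of 0.0001 to 0.0643. IDS rose too, with normalized counts of 4938, 6505 and 6907 in the Gln-depleted libraries and 3039, 3798 and 4053 in the CTRL libraries, no overlap, and a log2 fold change of 0.75 ± 0.21 (adjusted p = 0.0427). Its call was kept without Gln-depleted replicate 1 and lost without each other library (0.63 to 0.84), with adjusted p over all alternatives of 0.00136 to 0.15. Other genes share most of the exon bases of IDS, as above.

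TFEB had normalized counts of 90.3, 68.9 and 46.0 in the Gln-depleted libraries and 165, 100.3 and 105 in the CTRL libraries. Every Gln-depleted library lay below every CTRL library, but the log2 fold change of -0.85 ± 0.37 did not pass (adjusted p = 0.143), and with the block it was -0.86 and passed. The membrane proteins gave no call without the block. NPC1 had a log2 fold change of 0.78 ± 0.29 (0.80 and passed with the block) and CLN3 of -0.40 ± 0.19 (-0.41 and passed), while LAMP1, LAMP2, MCOLN1 and SCARB2 had log2 fold changes of -0.03, 0.03, 0.02 and 0.0020, within their standard errors of 0.18 to 0.22. Among the proteases, CTSK had normalized counts of 867, 673 and 673 in the Gln-depleted libraries and 1890.5, 1237 and 878 in the CTRL libraries, with a log2 fold change of -0.86 ± 0.29 without the block and -0.80 with it, where it passed. The highest Gln-depleted library of CTSK lay just below the lowest CTRL library. LGMN had normalized counts of 3704, 2319 and 2222 in the Gln-depleted libraries and 8706, 4606 and 3649 in the CTRL libraries. The highest Gln-depleted library of LGMN lay just above the lowest CTRL library, and its batches differed: replicate 1 was the highest of its group in both. Its log2 fold change was -1.04 ± 0.36 without the block and -0.98 with it, where it passed. CTSD and TPP1 had log2 fold changes of 0.39 and 0.61 and passed as higher with the block.

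Lipid enzymes split in the same way. PSAP had normalized counts of 95792, 64572 and 55737 in the Gln-depleted libraries and 60204, 40793 and 36974 in the CTRL libraries. Its ranges overlapped across batches although it was higher in 3 of 3 same-numbered pairs, with a log2 fold change of 0.65 ± 0.27 without the block and 0.64 with it, where it passed. SMPD1 had normalized counts of 1661, 1093 and 1127 in the Gln-depleted libraries and 2169, 1557 and 1406 in the CTRL libraries, lower in 3 of 3 pairs, with a log2 fold change of -0.40 ± 0.25 and, with the block, -0.40, where it passed. With the block, these 2 genes of sphingolipid breakdown thus changed in opposite directions. NPC2, PPT1 and LIPA had log2 fold changes of -0.58, -0.42 and -0.42 and passed as lower with the block. HEXA had normalized counts of 6586, 4760.1 and 4193 in the Gln-depleted libraries and 3950.5, 2737 and 2225 in the CTRL libraries, which did not overlap. Its log2 fold change of 0.80 ± 0.27 did not pass, and with the block it was 0.82 and passed. The proton pump gave no call without the block. ATP6V1D had normalized counts of 3273, 3560.1 and 2735 in the Gln-depleted libraries and 1814, 2359 and 2376 in the CTRL libraries, with no overlap, and a log2 fold change of 0.55 ± 0.20 without the block and 0.55 with it, where it passed. ATP6V1B2 had normalized counts of 6641, 5220.3 and 4054 in the Gln-depleted libraries and 10454, 8622 and 7840.4 in the CTRL libraries, also apart, with log2 fold changes of -0.76 ± 0.23 and -0.78, the latter passing. ATP6V0D1, ATP6V1A and ATP6V1H had log2 fold changes of -0.64, -0.45 and -0.36 and passed as lower with the block.

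The difference between the changes, MAPKi minus Gln depletion, was tested over all 12 libraries. This fit estimated 1 spread for both experiments and did not pair libraries. Fitted apart, the median standard error was 0.075 with MAPKi and 0.25 with Gln depletion, so the errors below describe neither experiment alone. For 27 of the 45 genes the change was more positive with MAPKi, for 1, IDS, it was more negative, and 17 did not pass, while 19.8% and 20.7% of all 12627 genes passed in each direction (40.5% in either). With a replicate block the counts were 37 and 2, beside 29.3% and 31.6% of all genes. Of the 27, 18 were higher with MAPKi and had a negative log2 fold change with Gln depletion, and 9 had positive ones in both. The largest were CTSK with 3.22 ± 0.35 (95% interval 2.46 to 3.98), CTSS with 3.13 ± 0.54, SMPD1 with 2.82 ± 0.30, TFEB with 2.43 ± 0.35 and CTSA with 2.38 ± 0.24 (adjusted p between 1.87e-05 and 7.37e-04). NAGLU, which passed in opposite directions in the 2 experiments, differed by 2.30 ± 0.27, GLA, which also did, by 1.40 ± 0.32, and IDS, higher with Gln depletion and lower with MAPKi, by -0.98 ± 0.20 (interval -1.42 to -0.54, adjusted p = 0.00232). Several genes whose log2 fold changes had the same sign in both experiments did not pass: LGMN differed by -0.24 with an interval of -1.13 to 0.65, GALC by 0.54 with an interval of 0.06 to 1.02, and HEXA by 0.54 with an interval of -0.14 to 1.21. These intervals do not show that the changes were alike. The experiments were sequenced in different batches, each with its own controls, so a batch effect on the size of a change cannot be told apart from the treatment.

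**Figure D3:**
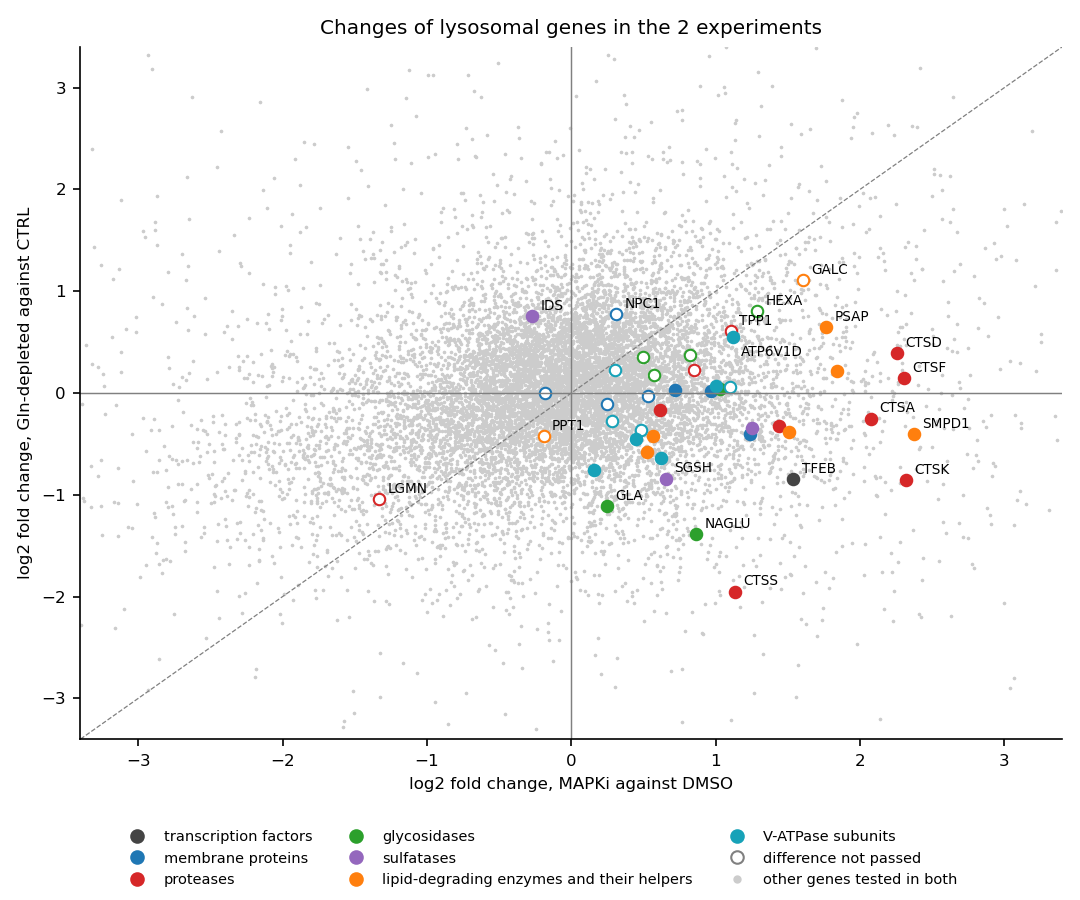
Log2 fold changes with MAPKi (horizontal) and with glutamine depletion (vertical) of the 45 genes, coloured by role, over other genes tested in both (grey, axes limited to 3.4 either way, so more extreme genes are not drawn). Filled points passed the test of the difference, and the dashed line marks equal change. The 27 genes more positive with MAPKi lie right of and below the line, and IDS above it.

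Other genes of the pathway were taken from 7 lists of 103 genes by known role, also with earlier results of these data known. With MAPKi 74 of the 90 tested were higher and 7 lower, beside 39.3% and 38.8% of all genes tested. Beyond 1.5-fold 47 rose and 2 fell, beside 17.2% and 18.4% of all genes, and the median log2 fold change was 0.75. All 15 other glycan enzymes tested were higher, led by HGSNAT, which acetylates heparan sulfate for the step of NAGLU (2344 ± 266 against 541 ± 36.5 normalized counts, SD, n = 3, log2 fold change 2.12). Of 27 other membrane proteins, 23 were higher and 1 was lower, with CD68, a LAMP relative of the endolysosomal membrane, rising most (14033 ± 242 against 2098 ± 169.5, log2 fold change 2.74) and MCOLN2 falling (322 ± 29.6 against 525 ± 51.0, log2 fold change -0.70). Of 11 lipid, phosphate and nucleic acid enzymes 9 were higher, and of 7 other proteases 5 were higher and 1 lower, with log2 fold changes of PRCP at 1.49 and CTSV at -0.60. Among 9 sorting genes 6 were higher and 1 lower. SORT1, a sorting receptor, rose (63911 ± 7752 against 15597 ± 1322, log2 fold change 2.03), and CLN6, which helps enzymes leave the endoplasmic reticulum, fell (log2 fold change -0.35). Of 8 regulators 7 were higher, FNIP2, a partner of folliculin upstream of TFE3, most (7677 ± 815 against 1746 ± 48.7, log2 fold change 2.14), and PPP3CB, a calcineurin subunit, was lower (log2 fold change -0.21). MITF rose on the log2 scale by 0.79. Of 13 other V-ATPase genes 9 were higher and 3 lower. TCIRG1, a further form of the V0 a subunit, rose (log2 fold change 1.16) and ATP6V0A4, the form known from kidney, fell (33.3 ± 15.8 against 302 ± 11.8, log2 fold change -3.17).

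With Gln depletion 6 of the 91 pathway genes tested were higher and 11 lower (6.59% and 12.1%), beside 9.43% and 8.29% of all genes tested. Beyond 1.5-fold 0 rose and 3 fell, beside 3.47% and 2.09% of all genes. With the block 18 were higher and 29 lower, beside 25.1% and 23.8% of all genes. Whether these counts differ from those shares was not tested. MITF fell most of the regulators, with normalized counts of 2459, 1606 and 2299.5 in the Gln-depleted libraries and 7013, 12831 and 12422 in the CTRL libraries. The groups stood far apart, and replicate 1 of CTRL was lower than the others of its group (log2 fold change -2.34 ± 0.29, adjusted p = 0.00282). CTSV (73.6 ± 6.52 against 219.9 ± 29.5, log2 fold change -1.58) and HYAL2, a hyaluronidase (692 ± 191 against 1741 ± 129, log2 fold change -1.33), also fell beyond 1.5-fold. ACP5, an acid phosphatase, GNPTAB, which makes the mannose 6-phosphate tag, and TPCN1, an ion channel, fell by 1.18, 1.59 and 0.73 on the log2 scale. AGA, which cleaves the link between sugars and asparagine, rose (1926 ± 156 against 915 ± 25.2, log2 fold change 1.07), as did MCOLN3 (log2 fold change 1.09) and ATP6AP2 (log2 fold change 0.67). The difference between the experiments was more positive with MAPKi for 58 pathway genes and more negative for 5 of the 91. Of all genes tested, 19.8% and 20.7% passed in these directions.

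**Figure D4:**
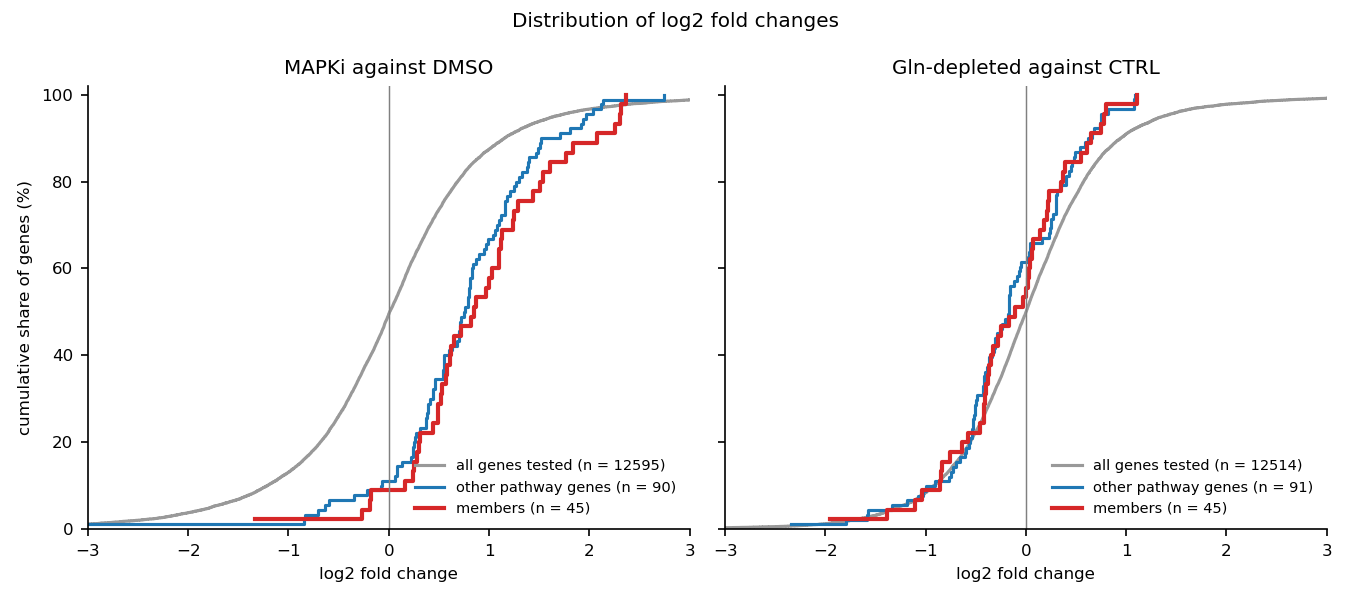
Cumulative share of genes (%) by log2 fold change, with the axis limited to 3 either way, for the 45 genes of the list, the other pathway genes and all genes tested in each experiment. With MAPKi both lysosomal curves lie right of all genes (medians 0.85, 0.75 and 0.0092), and with Gln depletion they lie slightly left (-0.11, -0.17 and 0.0014).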

How the data were processed

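RNA-seq of 12 A375 libraries was analysed. Per the labels and methods, the authors trimmed reads with fastp 0.20.1, aligned them to GRCh38 with HISAT2 2.2.1 and counted those on exons with HTSeq 0.13.5, and the deposited table gives unnormalized read counts for 44659 gene symbols. The labels describe RNA from a cytoplasmic lysate, the methods total RNA with rRNA depletion. The strand setting is not given in the sources used here.

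Protein-coding genes (19376 matched to RefSeq) whose normalized counts averaged 10 or more were fitted separately for the experiments in edgeR 4.0.16 (R 4.3.3; TMM scaling, quasi-likelihood test, treatment as the only term, Benjamini-Hochberg over all genes tested), against no change and against 1.5-fold, and the difference as a contrast over all 12 libraries. Normalized counts are scaled to the mean library of an experiment. The analysis was tested on simulated data. The 47 genes, the 7 pathway lists and the tests were chosen with earlier results of these data known. Library values are given for TFEB, TFE3 and, per role and experiment, the largest called rise and fall with a mean count of at least 100, and pathway genes were named likewise. Further library values, such as those of CTSS, GLA, CTSD, PSAP and SGSH, were added after they were seen.

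Replicate numbers pair the Gln-depleted and CTRL libraries: the labels tie them to experimental batches, and the deviations of same-numbered libraries from their groups correlated at 0.584, 0.441 and 0.386 over 12514 genes. Blocked values therefore stand beside those results. Same-group libraries differed beyond counting error, so none was a repeat deposit.

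Alternatives were DESeq2 1.42.0 or its size factors, other count filters, all genes of the table, a fit of all 12 libraries, the replicate block, a GC-content correction (spline with 5 degrees of freedom), both together, an adjusted p of 0.01, a log2 threshold of 1, batch 2 alone, and each library left out. Promoter windows are from RefSeq (GRCh38.p14), gene positions from GENCODE, and tables and figures were made with Python 3.11.15, pandas 2.3.3 and matplotlib 3.10.9.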

Additional observations from a re-analysis of the deposited data

How the results depend on the processing

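The direction of the MAPKi result held under every alternative run: 33 to 41 of the 45 genes were higher, and the median log2 fold change was 0.76 to 0.91. Of all genes tested, 39.3% were higher in the main fit and 24.2% in the fit of all 12 libraries, which gave the 33. For the other settings those shares are not given here, so the counts there are not read as particular to the lysosomal genes. The count of lower genes fell from 4 to 2 with a minimum mean count of 100, with the GC-content correction or at an adjusted p of 0.01, to 1 in the fit of all 12 libraries, and to between 2 and 4 when 1 library was left out. Against a log2 fold change of 1, 15 genes rose with MAPKi, and the share of all genes at that threshold is not given here. Same-numbered MAPKi and DMSO libraries correlated at 0.0687, 0.058 and 0.0564, and every library correlated best with its own number. The main fit did not pair them. With pairing the standard error was 0.038 instead of 0.090 for CTSA and 0.093 instead of 0.082 for TFEB. With a replicate block the counts were again 41, 4, 25 and 1, and the block changed no MAPKi call of a member.

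The glutamine counts (2 higher, 3 lower, 0 up and 1 down beyond 1.5-fold, with 6 higher and 11 lower pathway genes) depended on the processing, and the cause was not tested. The shares of all genes moved too, from 9.43% higher and 8.29% lower to 25.1% and 23.8% with the block and 17.9% and 17% in batch 2 alone. For the other settings those shares are not given here, so the counts are not read as particular to the lysosomal genes. DESeq2 gave 4 higher, 8 lower and 0 down. The replicate block gave 9, 16, 1 and 4, with 18 and 29 pathway genes, and the fit of all 12 libraries 7, 13, 1 and 3, with 12 and 28. The GC-content correction gave 8 higher and 10 lower, and with the block 10, 17, 2 and 4, with 16 and 29 pathway genes. Batch 2 alone gave 8 higher, 10 lower and 3 down, with 11 higher pathway genes. A minimum mean count of 100, and all genes of the table, each gave 1 higher. A threshold of 1 on the log2 scale gave 0 down, and an adjusted p of 0.01 gave 0 higher and 1 lower, with 1 and 4 pathway genes. Leaving out 1 library gave 0 to 4 higher, 1 to 7 lower and 0 to 2 down, with 1 to 5 higher and 5 to 9 lower pathway genes, and medians of -0.1889 to -0.045. The extremes came without Gln-depleted replicate 1 (7 lower, 2 down), without CTRL replicate 1 (4 higher), and without replicate 2 or 3 of either group (0 or 1 higher, 1 lower). For the difference, the genes more negative with MAPKi numbered 2 with the block, beside 31.6% of all genes, and 1 to 2 with 1 library left out. Pathway genes more negative numbered 8 with the block, 3 with a mean count of at least 100, and 3 to 6 with 1 library left out.

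Some log2 fold changes changed sign, and these did not pass the test before or after. Up to the last list, the values are for glutamine depletion. With the replicate block it was -0.0026 for SCARB2. With a minimum mean count of 100 they were -0.0069 for GLB1, -0.0125 for LAMP2, -0.0212 for MCOLN1 and -0.0429 for SCARB2. With all genes of the table they were -0.0024 for LAMP2, -0.0101 for MCOLN1 and -0.034 for SCARB2. In the fit of all 12 libraries they were -0.0107 for GLB1, -0.0099 for LAMP2, -0.0256 for MCOLN1 and -0.0428 for SCARB2. With the GC-content correction they were 0.0586 for LAMP1, -0.2991 for LAMP2 and -0.1037 for SCARB2. With that correction and the replicate block they were 0.0619 for LAMP1, -0.2686 for LAMP2 and -0.1001 for SCARB2. In experimental batch 2 alone it was 0.089 for LAMP1. Leaving out each library in turn gave ranges of -0.074 to 0.2768 for ATP6AP1, -0.295 to 0.4318 for ATP6V0A1, -0.2472 to 0.0607 for CD63, -0.0166 to 0.4125 for CTSF, -0.1558 to 0.2884 for GLB1, -0.0914 to 0.5705 for GRN, -0.1617 to 0.1884 for LAMP1, -0.0557 to 0.2055 for LAMP2, -0.0538 to 0.0603 for MCOLN1 and -0.0965 to 0.138 for SCARB2. For the difference between the experiments they were -0.0227 to 0.2761 for ATP6V1E1, -0.7139 to 0.0321 for LGMN, -0.0279 to 0.4119 for MANBA and -0.0294 to 0.288 for MCOLN2, none of which passed the test. Counts were high, so the spread between libraries limits these values more than depth does. Reads on overlapping genes and the few reads listed for TFE3 and GAA could not be resolved from the counts.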

Other observations

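Melanocyte lineage genes, whose products serve the melanosome, moved in the same experiments. With MAPKi, DCT, an enzyme of melanin synthesis, had normalized counts of 273977 ± 43682 against 7022 ± 1398 (SD, n = 3 per group, log2 fold change 5.29), PMEL, which forms the melanosomal fibrils, 7609.8 ± 1839.7 against 1007 ± 125 (2.92), and MLANA 172 ± 18.2 against 27.7 ± 6.94 (2.63). SOX10, a factor of the lineage, changed less, with 30002 ± 831 against 20577 ± 614 (0.54). All 4 passed edgeR's test. Among genes known from melanoma cells, VIM and S100B passed as lower (log2 fold changes -1.23 and -2.13), AXL passed as higher (0.35) and S100A1 did not pass (0.12). With glutamine depletion MLANA passed narrowly as lower, at low counts, with 3.67 ± 2.11 against 16.3 ± 8.98 (-2.19), while SOX10 (-0.25) and PMEL (-0.68) did not pass. MITF, also of the lineage, passed as lower (-2.34), and DCT (-0.98) and TYR (-0.52) did not pass. Among the genes known from melanoma cells AXL passed as higher (1.79), and VIM (-0.11), S100B (-0.38) and S100A1 (-0.49) did not pass. Whether these genes and the lysosomal genes moved for 1 reason was not tested.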
